A study of Rattus norvegicus with 8 samples.

Results

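The 38 genes described here make up the core of NF-kB and tumour necrosis factor (TNF) signalling: receptors, adaptors, kinases, inhibitors, the NF-kB subunits, and the feedback and target genes that NF-kB switches on. They were taken by gene name from 1 table of 13613 genes, measured by RNA sequencing of nucleus pulposus cells in primary culture from rats; this cell type fills the soft core of the intervertebral disc. Of the 38, 36 had a row, and Traf5 and Map3k7 (which encodes the kinase TAK1) are not analysed here. Of those 36, 35 passed the filter on low counts out of 12383 genes tested; Tnf did not. The genes fall into 16 inducible feedback and target genes (15 tested) and 22 signalling components (20 tested).

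The knockdown group held 4 libraries from cells given a TonEBP-specific short hairpin RNA by transduction, and the control group held 4 libraries from cells transduced with the control vector PLKO1. TonEBP, encoded by Nfat5, is the transcription factor that answers high salt and that shares its DNA-binding domain type with the NF-kB family. All cells came from explant outgrowth, were kept in DMEM with 10% FBS, and received 110 mM extra NaCl for 8 h, so no culture without added salt enters any comparison. Each title carries a Set number from 1 to 4, once per group, and knockdown and control were compared within Sets. The labels do not say whether Sets were separate animals or cultures, so p-values measure only the spread between these samples, which may be technical.

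In resting cells, inhibitor proteins of the IkB family hold NF-kB dimers in the cytoplasm. Binding of TNF to its receptor gathers the adaptor TRADD, the kinase RIPK1, TRAF proteins and the ubiquitin ligases cIAP1 and cIAP2 into a complex that activates TAK1 and then the IKK kinases, and IKK marks the inhibitors for destruction. Freed NF-kB then switches on inflammatory genes together with its own brakes, among them IkBα and the ubiquitin-editing protein A20, so the levels of these feedback genes are widely read as a record of recent NF-kB activity. Disc cells are known to respond to TNF in this way.

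As a class, the inducible genes had lower levels in knockdown cells, while the signalling components lay on both sides of their control level. In the authors' deposited table, 7 of 35 members with an adjusted p were called lower in knockdown cells and 0 higher; 5.22% of all genes in that table were called lower and 4.09% higher. The 7 were Tnfaip3, Birc3, Traf1, Tnfaip2, Nfkb1 and Nfkbia, 6 of 15 inducible genes, and Birc2, 1 of 20 signalling components. In the within-Set limma fit, the inducible genes had a median log2 difference (knockdown minus control) of -0.74, with 14 of 15 below 0. The signalling components had a median of 0.02, with 9 of 20 below 0 and 11 above, and single genes ran from -0.65 to 0.57. Over all genes tested the median was 0.00, with 49.9% below 0. The inducible median differed by Set: -0.02 in Set 1, where 8 of 15 were lower, -0.44 in Set 2, and -1.31 in Sets 3 and 4.

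How firmly these calls hold depended on the test. The limma fit with the Set as a block called 0 of 35 members, and 0 of 12383 genes, at an adjusted p under 0.05. At an adjusted p under 0.10 it had 2 members lower, Birc2 and Birc3, and 0 higher, against 3.13% and 2.51% of all genes. At an unadjusted p under 0.05 it had 11 members lower, against 12.0% of all genes, and 2 higher, against 11.1% of all genes. edgeR's quasi-likelihood test with the block also called 0 members at an adjusted p under 0.05, and at an unadjusted p under 0.05 it had 10 lower and 2 higher, against 11.9% and 10.4% of all genes. DESeq2 with the same block called 8 members lower, the 7 above and Vcam1, and 0 higher, against 5.45% and 4.31% of all genes. Without the Set, DESeq2 called 0 of the 32 members that had an adjusted p, against 0.833% of all genes lower and 0.597% higher, and limma called 0 of 35, against 1 gene in the whole table (0.00808%, lower). Birc3 alone then had an unadjusted p under 0.05 in limma, in the lower direction, against 5.14% of all genes lower and 4.36% higher. Differences below are log2 of the normalized count plus 1 from the blocked limma fit unless another source is named.

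The targeted gene was lower in each Set. Nfat5 had 1094, 872, 459 and 414 normalized counts in knockdown libraries 1 to 4, against 1682, 2332, 1677 and 942 in control libraries 1 to 4. The knockdown library held 65.0% of its control's level in Set 1, 37.4% in Set 2, 27.4% in Set 3 and 43.9% in Set 4. Levels of the 2 groups overlapped across Sets, since knockdown library 1 stood above control library 4. The difference was -1.27 ± 0.20 (SE; limma adjusted p = 0.0591), and the authors' deposited table gave -1.12 with an adjusted p of 1.2e-05.

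Libraries held 12001853 to 15782202 reads on the listed genes in the knockdown group and 9567488 to 14743387 in the control group. Among nucleus pulposus markers, 7 of 12 had a row, with a summed level of 426 to 972 normalized counts in knockdown and 400.04 to 1102 in control libraries. Krt8 ran from 98.1 to 725 in knockdown and from 77.1 to 865 in control libraries. Foxf1 ran from 180 to 240 in knockdown and from 154 to 262 in control libraries, and Cd24 from 17.4 to 379 and from 7.39 to 498. Krt18, Sox9 and Car12 were low, with 29.2 for Sox9 in control library 2 as their highest value. Col2a1 stayed between 0.97 and 4.87 in knockdown and between 0.00 and 8.76 in control libraries, and no row carried the symbols Acan, T, Krt19, Shh or Noto. Fibroblast and annulus markers (6 of 7 with a row) summed to 25740 to 180159 in knockdown and 24287 to 145087 in control libraries, and the authors' deposited table called 2 of them, Col1a1 and Col1a2, higher. The others with a row, Dcn, Lum, Thy1 and Pdgfra, were not called and had limma differences of -0.17, -0.12, -0.43 and -0.59. Endothelial markers (2 of 7 with a row) summed to 12.9 to 20.7 in knockdown and 8.70 to 45.6 in control libraries. Macrophage and leukocyte markers (6 of 12 with a row) summed to 411 to 643 in knockdown and 536 to 764 in control libraries; Ptprc and Adgre1 had no row, and the authors' deposited table called 1 of the 6, Cd68, lower. The part of these cell mixtures in the results below was not tested, and in bulk RNA fewer cells of a type and less RNA per cell cannot be told apart.

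Tnfaip3 encodes A20, the enzyme that edits ubiquitin chains on RIPK1 and shuts the TNF receptor complex down. It had 152, 129, 136 and 332 normalized counts in knockdown libraries 1 to 4, against 264, 175, 552 and 2739 in control libraries 1 to 4. Knockdown was below control in all 4 Sets, by a narrow margin in Set 2 and a wide one in Set 4, and the groups overlapped because knockdown library 4 exceeded control libraries 1 and 2. The difference was -1.57 ± 0.42 (limma adjusted p = 0.108), or 2.97-fold lower, and it measured -0.79, -0.44, -2.01 and -3.04 in Sets 1 to 4. The authors' deposited table gave -1.20 with an adjusted p of 0.00158.

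Nfkbia encodes IkBα, the inhibitor that NF-kB makes anew to return itself to the cytoplasm. It had 1254, 1389, 1662 and 3718 normalized counts in knockdown libraries 1 to 4, against 1270.4, 1883, 3906 and 8945 in control libraries 1 to 4. The knockdown and control libraries of Set 1 were nearly level, and the gap was widest in Sets 3 and 4. The difference was -0.74 ± 0.23 (limma adjusted p = 0.130), with -0.02, -0.44, -1.23 and -1.27 in Sets 1 to 4. The authors' deposited table gave -0.66 with an adjusted p of 0.0358.

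The promoters of these 2 brakes are shown because each holds more than 1 match to the NF-kB binding motif and 1 of those matches overlaps the core of the tonicity element to which TonEBP binds. The sequences are the 250 bases before the RefSeq start site on build GRCr8, read 5′ to 3′ on the gene's strand, and capitals mark each match to the kB motif (GGGA, any 4 bases, then CC) on either strand.
Tnfaip3, chr1:15543980-15544229, minus strand: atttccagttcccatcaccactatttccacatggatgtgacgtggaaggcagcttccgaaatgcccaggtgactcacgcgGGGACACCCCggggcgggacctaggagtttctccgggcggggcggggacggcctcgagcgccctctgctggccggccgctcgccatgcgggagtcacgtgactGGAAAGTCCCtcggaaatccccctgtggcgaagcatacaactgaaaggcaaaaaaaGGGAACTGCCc
Nfkbia, chr6:78597073-78597322, minus strand: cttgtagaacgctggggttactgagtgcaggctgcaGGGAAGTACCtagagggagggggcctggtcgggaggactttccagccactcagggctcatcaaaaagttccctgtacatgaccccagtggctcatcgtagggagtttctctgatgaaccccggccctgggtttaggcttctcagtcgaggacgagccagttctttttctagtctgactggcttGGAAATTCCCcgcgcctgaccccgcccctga
Counting the first transcribed base as 0, the Tnfaip3 matches start at -170, -67 and -11, and the match at -67 overlaps a TGGAAA that starts at -68. The Nfkbia matches start at -214 and -31, and the match at -31 overlaps a TGGAAA that starts at -32. Nfkb1 and Nfkbiz also hold more than 1 match and an overlap, and their overlapping sites are shown further below. A match is a string of letters in a sequence, not a measured binding event.

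Among the other brakes, Tnip1, which encodes the A20 partner ABIN1, differed by -0.33 ± 0.26 (limma adjusted p = 0.488) and was lower in 3 of 4 Sets. Nfkbie, which encodes IkBε, differed by 0.02 ± 0.26 (limma adjusted p = 0.980) and was higher in 3 Sets. Neither inducible nuclear IkB protein gene passed the test: Nfkbiz, needed for a second wave of NF-kB targets, stood at -1.01 ± 0.42 (limma adjusted p = 0.216), and Bcl3 stood at -0.01 ± 0.49 (limma adjusted p = 0.990). Both had a wide spread between Sets. In Set 3 Nfkbiz had 531 normalized counts in the knockdown library, against 3553 in the control library, and in Set 1 it had 2514 and 2511. Bcl3 was lower in knockdown cells in Set 3, at 129 against 520.0, and higher in Set 4, at 459 against 183.

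Birc3 encodes cIAP2, the inducible ubiquitin ligase of the receptor complex. It had 243, 234, 178 and 487 normalized counts in knockdown libraries 1 to 4, against 321, 474, 1166 and 2089 in control libraries 1 to 4. Knockdown was below control in every Set, and knockdown library 4 was the only knockdown library above any control library. The difference was -1.55 ± 0.37 (limma adjusted p = 0.0924, and 0.463 without the Set), or 2.94-fold lower. The authors' deposited table gave -1.20 with an adjusted p of 0.000843. DESeq2 with the block still called Birc3 when any 1 Set was left out, a check added after seeing the data, and without Set 4 it called no other member.

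Birc2 encodes cIAP1, the constitutive relative of cIAP2. It had 1199, 1060.0, 789 and 692 normalized counts in knockdown libraries 1 to 4, against 1595, 1404, 1429 and 887 in control libraries 1 to 4. Knockdown was lower in all 4 Sets, most in Set 3, with log2 differences of -0.41, -0.41, -0.86 and -0.36 in Sets 1 to 4, and the groups overlapped because control library 4 was low. The difference was -0.51 ± 0.12 (limma adjusted p = 0.0990), and the authors' deposited table gave -0.48 with an adjusted p of 0.0282. Birc2 and Birc3 are similar neighbouring genes, so reads could be shared between them, and how the authors counted such reads is not given in the sources used here.

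Traf1, an inducible adaptor that holds cIAP proteins at TNF receptors, had 86.1, 60.8, 52.2 and 149 normalized counts in knockdown libraries 1 to 4, against 123, 132, 134 and 1132 in control libraries 1 to 4. Control libraries 1 to 3 lay close together, and control library 4 stood far above them. The difference was -1.47 ± 0.38 (limma adjusted p = 0.103), or 2.76-fold lower, and each Set was lower. The authors' deposited table gave -1.14 with an adjusted p of 0.00241.

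Tnfaip2, a TNF-induced gene linked to membrane protrusions, had 793, 764, 914 and 2352 normalized counts in knockdown libraries 1 to 4, against 982, 1091, 2264 and 14299 in control libraries 1 to 4. Knockdown was lower in each Set, least in Set 1 and most in Set 4, and knockdown library 4 was above 3 control libraries. The difference was -1.18 ± 0.36 (limma adjusted p = 0.129), or 2.27-fold lower. The authors' deposited table gave -0.96 with an adjusted p of 0.0098.

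**Figure D1:**
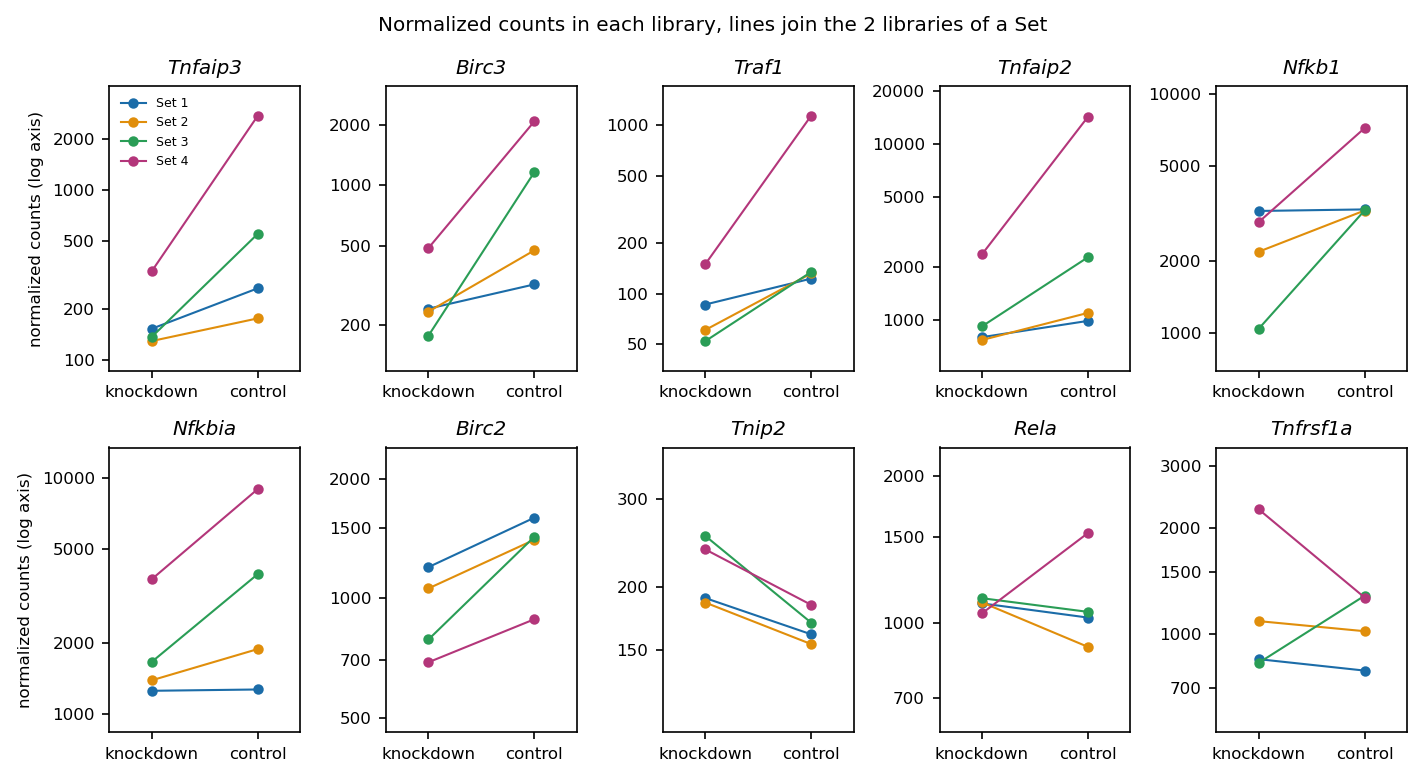
Normalized counts (vertical log axis) of 10 members in each knockdown library (left) and control library (right), with a line joining the libraries of a Set. The lines of Tnfaip3, Birc3, Traf1 and Tnfaip2 run upward to the control in all 4 Sets and are steepest in Sets 3 or 4, those of Tnip2 run downward in all 4, and those of Rela and Tnfrsf1a cross.

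Among the NF-kB subunits, Nfkb1 was the lower one. It encodes p105, the precursor of p50, and had 3242, 2189.8, 1042 and 2912 normalized counts in knockdown libraries 1 to 4, against 3291, 3257, 3259 and 7199.7 in control libraries 1 to 4. The groups did not overlap, but knockdown library 1 lay just under the control libraries. The difference was -0.89 ± 0.26 (limma adjusted p = 0.125), with -0.02, -0.57, -1.64 and -1.31 in Sets 1 to 4, and the authors' deposited table gave -0.74 with an adjusted p of 0.0286. Nfkb1 was the only member of 35 with non-overlapping groups in the lower direction, against 3.44% of all genes.

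Rela, the main activating subunit, is known to be controlled by its location more than by its amount. It had 1095, 1101, 1123 and 1045 normalized counts in knockdown libraries 1 to 4, against 1024, 892, 1052 and 1529 in control libraries 1 to 4. The knockdown libraries lay within the control range, and knockdown was lower in Set 4 alone. The difference was -0.01, with a 95% interval of -0.39 to 0.36.

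The other subunit genes had differences below 0 that were smaller than their standard errors, and all were lower in Set 4. Nfkb2, the p100 precursor of the non-canonical pathway, differed by -0.22 ± 0.35 (limma adjusted p = 0.738). It was higher in knockdown cells in Sets 1 to 3 and lower in Set 4, where it had 1199 normalized counts in the knockdown library and 3937 in the control library. Relb, its usual partner, differed by -0.08 ± 0.25, and Rel, the lymphoid-type activating subunit, by -0.03 ± 0.29. Both were lower in 2 Sets and higher in 2, and for each of these 3 genes leaving out 1 of the Sets turned the direction.

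The ligand gene was near the detection limit. Tnf had 5.80, 0.00, 0.00 and 0.00 normalized counts in knockdown libraries 1 to 4, against 1.75, 0.00, 8.63 and 12.6 in control libraries 1 to 4, from at most 13 reads in a library. These counts allow no statement on a difference, and the deposited table gives no adjusted p for it.

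Both receptor genes had differences above 0, and neither passed the test. Tnfrsf1a, the main TNF receptor of most cells, had 846, 1086, 826 and 2261 normalized counts in knockdown libraries 1 to 4, against 785, 1016, 1283 and 1268 in control libraries 1 to 4. Knockdown was lower in Set 3 alone, and knockdown library 4 was the highest of all 8. The difference was 0.10, with a 95% interval of -0.43 to 0.64. Tnfrsf1b, the second TNF receptor, had 1119, 935, 569.6 and 1690.2 normalized counts in knockdown libraries 1 to 4, against 643, 428, 589 and 1265 in control libraries 1 to 4. It was higher in Sets 1, 2 and 4, with a difference of 0.57 ± 0.20 that did not pass the test (limma adjusted p = 0.156; 0.0999 in the authors' deposited table).

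Among adaptors, Traf2, the scaffold that brings cIAP proteins to the receptor, had 802, 639.9, 594 and 845 normalized counts in knockdown libraries 1 to 4, against 877, 627, 799 and 1124 in control libraries 1 to 4. It was lower in Sets 1, 3 and 4 and level in Set 2, with a difference of -0.23 ± 0.12 (limma adjusted p = 0.310). Ripk1, the kinase scaffold on which the ubiquitin chains are built, was lower in all 4 Sets, at -0.36 ± 0.12 (limma adjusted p = 0.150). Tradd, the first adaptor of the receptor, differed by -0.24, Traf3, which restrains the non-canonical kinase, by 0.02, and Traf6, the adaptor of interleukin-1 and Toll-like receptors, by 0.08. None of these 3 passed a test.

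Among kinases, Ikbkb, which encodes the catalytic IKKβ of the canonical pathway, had 613, 672, 729 and 596 normalized counts in knockdown libraries 1 to 4, against 509.9, 1068, 903 and 1289 in control libraries 1 to 4. It was lower in Sets 2 to 4 and higher in Set 1, with a difference of -0.46 ± 0.22 (limma adjusted p = 0.270). Its partners Chuk (IKKα) and Ikbkg (the scaffold NEMO) differed by 0.12 and 0.02. Ikbke, the inducible IKK-related kinase, was lower in 3 Sets at -0.65 ± 0.24 (limma adjusted p = 0.181), the most negative value among the 20 signalling components. Its relative Tbk1 differed by 0.16, Map3k14, the kinase NIK that starts the non-canonical pathway, by 0.15, and the TAK1 partners Tab1 and Tab2 by 0.00 and 0.28.

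Brakes of the constitutive kind showed values on both sides of 0. Tnip2, which encodes the A20 partner ABIN2, had 190.4, 187, 253 and 238 normalized counts in knockdown libraries 1 to 4, against 161, 154, 170.1 and 185 in control libraries 1 to 4. Every knockdown library was above every control library, as held for 2.9% of all genes, and the difference was 0.36 ± 0.14. It did not pass the test (limma adjusted p = 0.196; 0.239 in the authors' deposited table). Cyld, the enzyme that removes linear and K63-type ubiquitin chains, was higher in all 4 Sets at 0.19 ± 0.12 (limma adjusted p = 0.387). Nfkbib, which encodes IkBβ, was lower in 3 Sets at -0.41 ± 0.23 (limma adjusted p = 0.332).

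Adhesion molecules stood for the effector targets. Vcam1, the endothelial-type adhesion gene that many stromal cells express after TNF, had 5969, 906, 382 and 454 normalized counts in knockdown libraries 1 to 4, against 4732, 1341, 1372 and 2570.3 in control libraries 1 to 4. Set 1 was far above the other Sets in both groups and ran the opposite way, with knockdown higher. The difference was -1.14 ± 0.44 (limma adjusted p = 0.188), DESeq2 with the block gave an adjusted p of 0.0497, and the authors' deposited table gave 0.116. Icam1, the second adhesion gene, was lower in all 4 Sets at -0.67 ± 0.29 (limma adjusted p = 0.225), with margins in Sets 1 and 2 close to 0. Its highest value was 12241 normalized counts in control library 4.

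**Figure D2:**
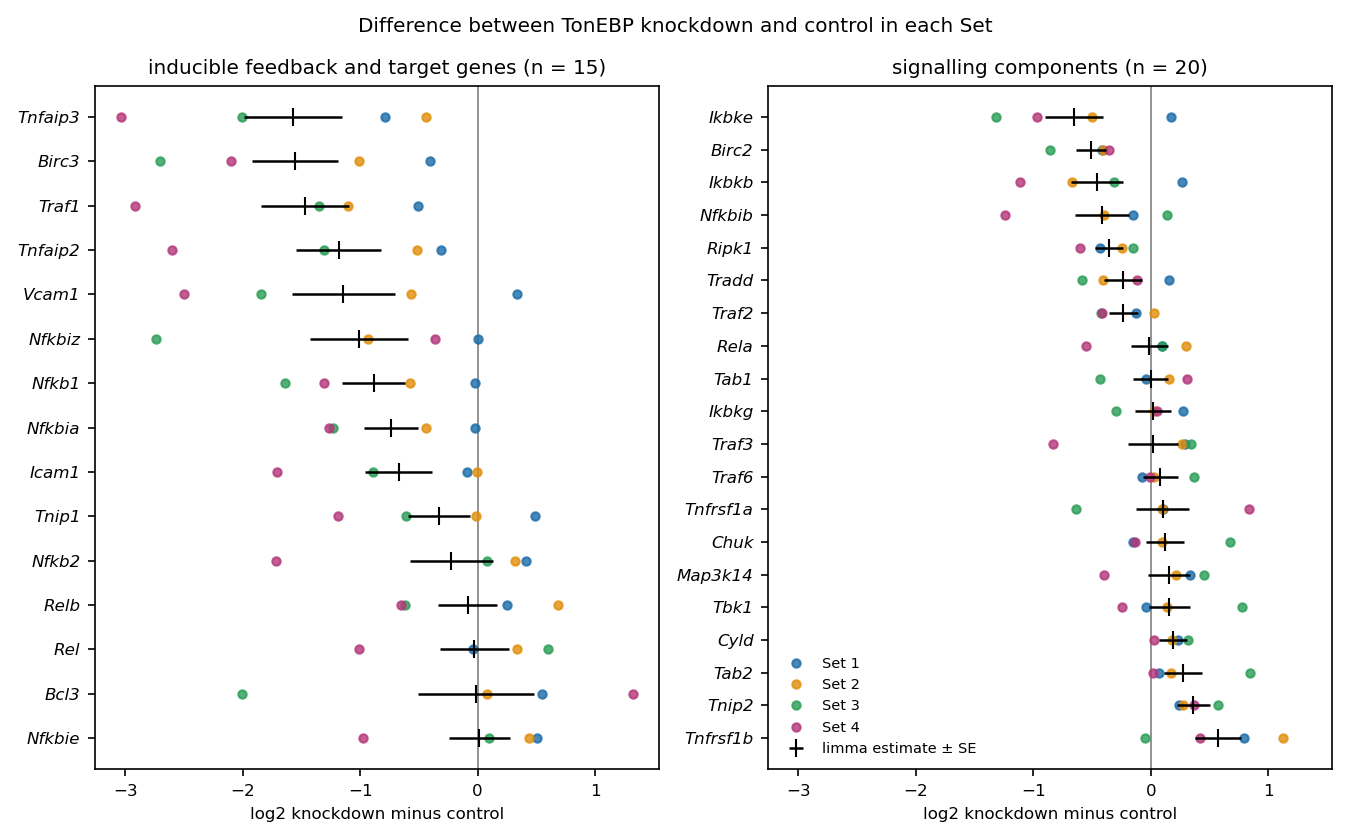
Difference of each tested member in log2 (knockdown minus control) in Sets 1 to 4 (points), with the limma estimate and its SE (black), for 15 inducible genes and 20 signalling components. Estimates of the inducible genes run between -1.57 and 0.02, and those of the signalling components between -0.65 and 0.57.

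The contrast between the classes differed from Set to Set. The inducible genes had a median difference of -0.02 in Set 1, -0.44 in Set 2, -1.31 in Set 3 and -1.31 in Set 4, and the signalling components 0.10, 0.10, 0.02 and -0.19. The inducible median minus the signalling median was therefore -0.12, -0.53, -1.33 and -1.12 in Sets 1 to 4, and -0.76 in the fit over all Sets. The knockdown level of Nfat5 in the same Sets was 65.0%, 37.4%, 27.4% and 43.9% of control. The orders matched at the extremes, Sets 1 and 3, but not between them: Set 2 kept less Nfat5 than Set 4 and had the smaller contrast. With 4 Sets no correlation was computed, and the part of the Nfat5 level in the contrast was not tested. Of the 15 inducible genes, 7 were lower in all 4 Sets and 0 higher in all 4, and of the 20 signalling components 2 were lower and 3 higher in all 4, against 16.2% and 17.0% of all genes.

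**Figure D3:**
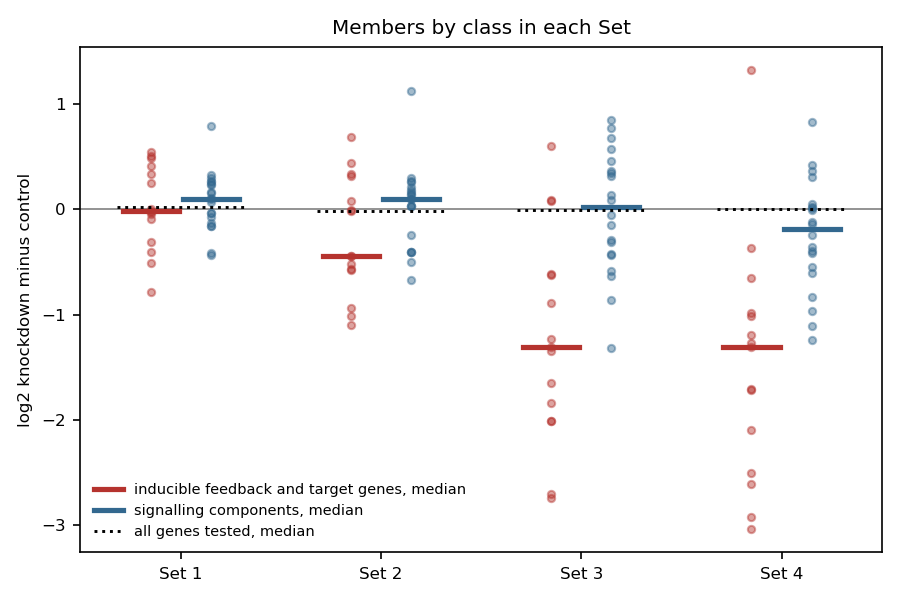
Difference in log2 (knockdown minus control) of each tested member in Sets 1 to 4, with inducible genes left and signalling components right in each Set, bars at the class medians and dotted lines at the median of all genes tested. The inducible median lies at -0.02 in Set 1 and at -1.31 in Sets 3 and 4, while the signalling median stays between -0.19 and 0.10.

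The inducible genes were also the members that varied most between libraries of 1 group. The ratio of the highest to the lowest library had a median of 3.08 in knockdown and 6.50 in control cells over the 15 inducible genes. It was 1.71 and 1.79 over the 20 signalling components, and 1.77 and 1.81 over all genes tested. Control library 4 was the highest control library for 11 of 15 inducible genes (73.3%), 12 of 20 signalling components (60.0%) and 28.5% of all genes. Without Set 4 the inducible median was -0.56. DESeq2 with the block called 9 members among 884 genes without Set 1, 4 among 293 without Set 2, 3 among 664 without Set 3 and 1 among 457 without Set 4, in place of 8 among 1174. The 3 without Set 3 were Traf1 and Birc3, lower in knockdown cells, and Tnfrsf1b, higher.

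Motif matches separated the classes as well, although the inducible class was itself drawn from genes known to answer NF-kB, so this is a description and not independent support. RefSeq promoter windows of 300 bases on build GRCr8, 250 before and 50 after the start, were found for 30 of the 38 members. The kB motif, GGGA followed by any 4 bases and CC and searched on both strands, occurred in 11 of 14 windows of inducible genes (78.6%), 2 of 16 of signalling components (12.5%) and 19.3% of 33469 promoters in the table. The tonicity element core TGGAAA, also searched on both strands, occurred in 8 of 14 windows of inducible genes, 4 of 16 of signalling components and 22.7% of all promoters. An overlap needs a kB match, which only 2 signalling windows held, and 0.62% of all promoters with a kB match held an overlap. The motifs overlapped each other in 4 inducible windows (Tnfaip3, Nfkbia, Nfkb1 and Nfkbiz), in 0 signalling windows and in 0.12% of all promoters. In each of these inducible windows, TGGAAA lay inside the kB match except for its outermost letter, so the overlapping matches are not separate sites. Of these 4 genes with an overlap, the authors' deposited table called 3 lower, against 6 of 15 inducible genes, these 3 included, and 5.22% of all genes. The other called inducible genes were Tnfaip2, with no overlap, Traf1, with no match to either motif, and Birc3, whose window was not analysed. A link between overlap and calls was not tested.

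Sites from 7 other windows are shown, 10 bases on each side of the motif in capitals, on the strand of the gene, to set genes with larger differences beside genes with smaller ones. The first 3 belong to Nfkb1, Nfkbiz and Vcam1, at -0.89, -1.01 and -1.14, of which the authors' deposited table calls Nfkb1 alone, and the others to Tnip1, Nfkb2, Rel and Bcl3, whose differences lay between -0.33 and -0.01.
Nfkb1, chr2:226805440-226805469, minus strand: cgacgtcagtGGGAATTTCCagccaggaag
Nfkbiz, chr11:58251698-58251727, plus strand: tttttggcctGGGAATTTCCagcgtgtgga
Vcam1, chr2:206742857-206742886, minus strand: tccccttgaaGGGATTTCCCtccgcctctc
Tnip1, chr10:39585027-39585056, minus strand: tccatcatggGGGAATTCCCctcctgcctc
Nfkb2, chr1:255108344-255108373, plus strand: tggtattttcGGGACTTTCCtaagagcact
Rel, chr14:101922001-101922030, minus strand: cgtaggcagcGGGAAATCCCcccccgttcc
Bcl3, chr1:88613574-88613603, minus strand: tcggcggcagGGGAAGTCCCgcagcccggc
The 10 letters of the motif are identical in Nfkb1 and Nfkbiz, where TGGAAA lies on the opposite strand across the motif's end. Within the class, 10 tested inducible genes with a match had a median difference of -0.81 (4 called in the authors' deposited table), and the 3 without one, Traf1, Icam1 and Nfkbie, had a median of -0.67 (1 called in the authors' deposited table). Only exact matches were counted, and the Icam1 window holds TGGAAATTCC, which differs from the motif in its first letter alone. Windows for Relb, Birc3, Ikbkb, Ikbke, Traf6, Tradd, Tab1 and Cyld were not analysed here.

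**Figure D4:**
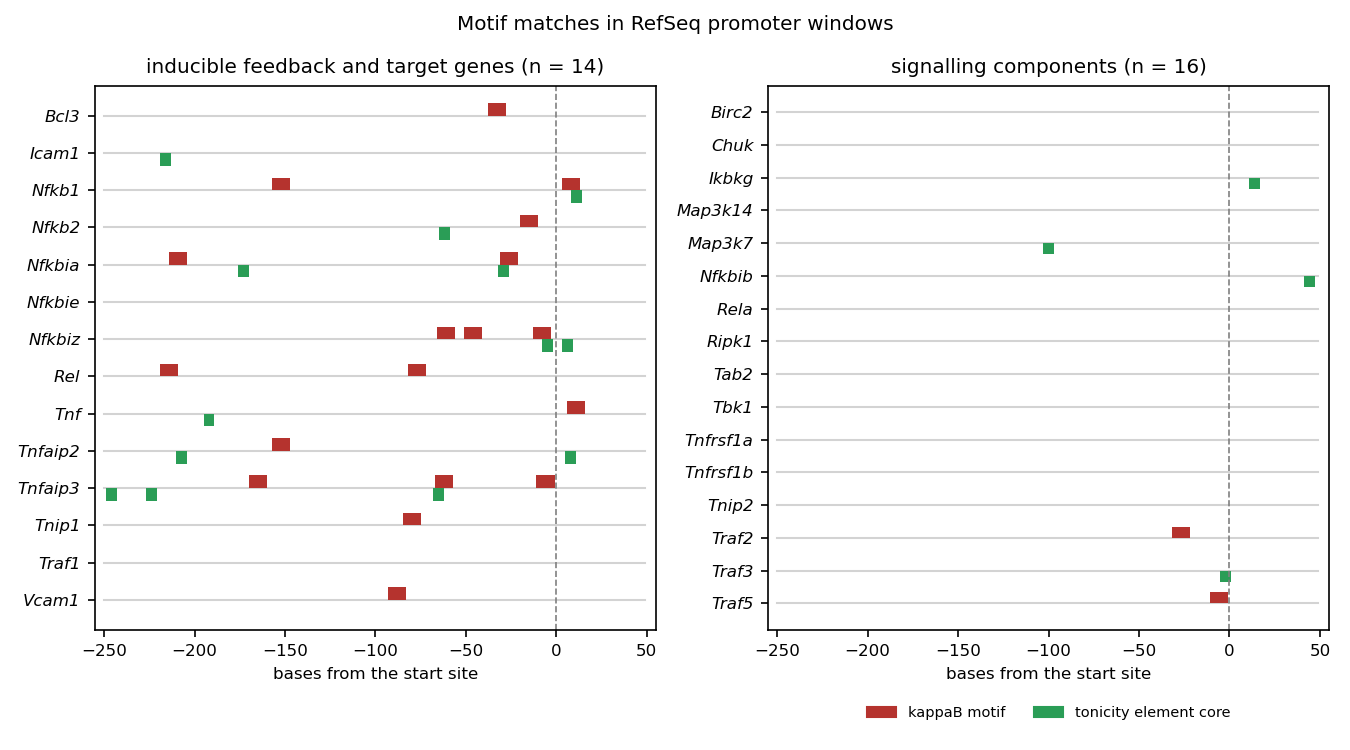
Positions of kB motifs (red, above the line) and tonicity element cores (green, below the line) in the RefSeq promoter windows of 14 inducible genes and 16 signalling components, in bases from the start site (dashed line). Red marks appear in 11 of the 14 inducible windows and in 2 of the 16 signalling windows, and the 2 kinds of mark overlap in 4 inducible windows.

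The list of other genes of the pathway had 50 of 54 genes with a row and 49 with an adjusted p in the authors' deposited table, which called 6 lower (12.2%) and 3 higher (6.12%). Of all genes in that table, 5.22% were called lower and 4.09% higher. Irak1, the kinase of interleukin-1 and Toll-like receptor signalling, had 1364, 1215, 772 and 867 normalized counts in knockdown libraries 1 to 4, against 1809, 2224, 2579 and 2597 in control libraries 1 to 4. The groups did not overlap, and the difference was -1.15 (limma adjusted p = 0.0767), with -0.99 in the authors' deposited table (adjusted p = 0.000613). Traf4, a TRAF adaptor with roles outside the canonical TNF pathway, ran the opposite way, with 594, 845, 1169 and 708 normalized counts in knockdown libraries 1 to 4, against 342, 407, 256 and 339 in control libraries 1 to 4. Its groups did not overlap either, and the difference was 1.27 (limma adjusted p = 0.0726). Among 49 genes of this list tested in limma, 3 had non-overlapping groups in the lower direction, Irak1 included, against 3.44% of all genes. In the higher direction 2 had them, Traf4 included, against 2.9% of all genes.

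The other genes called lower in the authors' deposited table were Cflar (-1.05 in limma), the caspase-8 brake c-FLIP, Mlkl (-0.99), the executor of necroptosis, the death receptor gene Tnfrsf21 (-1.08), the RNA-degrading brake Zc3h12a (-0.94) and the stress-induced Ier3 (-1.17). The others called higher in the authors' deposited table were Map3k3 (0.46 in limma), a kinase able to activate IKK, and Nkiras2 (0.47), a Ras-like protein that slows the breakdown of IkB. The list also held 8 other inducible targets, Zc3h12a and Ier3 among them. Their median limma difference was -0.51, with 7 below 0 and 1 above, against 49.9% of all genes below 0. In the authors' deposited table Irf1 stood at 0.39 (adjusted p = 0.281) and Nfkbid at -0.01 (adjusted p = 0.991).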

How the data were processed

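RNA was sequenced as single reads of 50 cycles, per the labels' protocols. The values are the authors' deposited normalized counts (a signal unit), with the authors' log2 fold changes and adjusted p-values beside them in the deposited table. Per the submitters' processing notes, Novoalign 2.08.01, DESeq2 1.10.1 and build rn5 were used; their settings and roles, the annotation, the use of strand and the treatment of shared reads were not given in the sources used here. Dividing each library by its smallest step returned whole reads for 100% of values (within 0.001 reads), and the least covered gene had 13 reads over 8 libraries, so genes with fewer are not in the table. Depth was 12001853 to 15782202 reads in knockdown and 9567488 to 14743387 in control libraries, and 1362 genes have no deposited adjusted p.

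The 12383 genes that passed filterByExpr of edgeR on recovered reads were tested with limma 3.58.1 (trend) on log2(value + 1), knockdown minus control, with the Set as a block, 2-sided, adjusted by Benjamini-Hochberg at 0.05. This scale understates changes of genes with few reads. Groups and Sets came from the sample titles. Pairing by Set was checked on deviations from group means: r was 0.805, 0.749, 0.681 and 0.699 within Sets 1 to 4 and at most 0.333 between Sets. Alternatives were no block, edgeR 4.0.16 and DESeq2 1.42.0 on recovered reads, other pseudocounts, no filter, TMM scaling, a looser threshold, other class borders and leaving out each Set; leaving out a library under the block leaves out its Set. The limma script was tested on simulated data with known changes. Tests ran in R 4.3.3 and figures in matplotlib 3.10.9. Promoter windows are from RefSeq (GRCr8), whose coordinates are not those of rn5, and members were matched by symbol.

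The members and gene lists were chosen with earlier results of these data known. Values in all 8 libraries are given for members whose groups do not overlap or that the authors' deposited table calls, and for Rela, Nfkbia, Ikbkb, Tnfrsf1a, Traf2, Tnf and Vcam1; of other pathway genes, those that table calls are named.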

Additional observations from a re-analysis of the deposited data

Results flagged for a closer look

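In 21 of 72 sets of 4 libraries (1 member in 1 group), the highest or lowest library stood apart from the other 3 by a gap that was a larger part of the whole range than Dixon's 95% critical value for 4 samples, a limit that chance passes in about 1 of 20 sets. Knockdown library 4 was the one apart in 6 and control library 4 in 10, and libraries are not independent between genes.

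In knockdown library 4, Tnfaip3 had 332 normalized counts, Nfkbia 3718, Tnfaip2 2352, Tnip1 2814, Relb 783 and Ikbkg 296, each above the other 3 knockdown libraries. In control library 4, Tnfaip3 had 2739, Tnfaip2 14299, Traf1 1132, Tnip1 6427, Nfkb1 7199.7, Nfkb2 3937, Nfkbie 777, Icam1 12241, Nfkbib 611 and Map3k14 468, each above the other 3 control libraries. The brakes Tnfaip3 and Tnip1 and the target Tnfaip2 were thus apart in both libraries of Set 4.

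Knockdown library 1 was apart for Vcam1, at 5969, and for Tnf, at 5.80. Knockdown library 3 was low for Ripk1, at 701. Control library 2 was low for Rel, at 50.5, and control library 1 was high for Tbk1, at 1101. The part of these libraries in the results was tested only by leaving out their Set.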

How the results depend on the processing

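With the Set as a block, limma called 0 members and 0 genes at an adjusted p under 0.05; with no block, 0 members and 1 gene. At 0.10 it called 2 members and 698 genes. DESeq2 with the block called 8 members and 1174 genes, and with no block 0 members and 163 genes; leaving out a Set gave 1 to 9 members among 293 to 884 genes, including Tnfrsf1b, higher in knockdown cells, without Set 3 (these 2 checks were chosen after seeing the data). The cause was not tested, beyond fewer libraries entering the last. The inducible median and the class contrast stayed below 0 under every setting run, at -0.98 to -0.56 and -0.96 to -0.53 when a Set was left out. The signalling median lay near 0 and changed side, at -0.05 to 0.06. Genes near 0 changed sign. With DESeq2 and no block, Rel was 0.056, Nfkbie -0.18, Traf3 -0.026 and Tab1 0.014; with the block, Bcl3 was 0.035 and Tab1 0.00058; in edgeR, Bcl3 was 0.031. Leaving out a Set gave Nfkb2 -0.44 to 0.27, Rel -0.24 to 0.30, Relb -0.34 to 0.11, Nfkbie -0.15 to 0.35, Bcl3 -0.46 to 0.65, Rela -0.12 to 0.16, Chuk -0.066 to 0.21, Ikbkg -0.069 to 0.12, Tbk1 -0.046 to 0.29, Traf3 -0.091 to 0.30, Traf6 -0.016 to 0.13, Tnfrsf1a -0.14 to 0.35 and Tab1 -0.10 to 0.14. Among the members with a row, depth kept only Tnf out of the tests, with 13 reads at most in a library.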
